A study of Homo sapiens with 6 samples.

Results

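Sestrins and the other genes that restrain mTORC1, together with the core of the complex they restrain, were followed in MDA-MB-231, a human breast cancer cell line of the triple-negative type, with or without Parishin B (PB). The 10 genes were taken by symbol from the 61806 genes of the table: the sestrins SESN1, SESN2 and SESN3, the stress-induced inhibitors DDIT4 and DDIT4L, the complex inhibitor DEPTOR, the tuberous sclerosis genes TSC1 and TSC2, and MTOR and RPTOR. Each symbol matched 1 row. The Control group and the PB group each held 3 samples of poly(A) RNA, and PB was given at 20 μM for 24 h. The sample names carry no other allele or agent, and what the control cells received was not given in the sources used here. The samples were cultures of a single line, and nothing says that those of a group were set up separately, so p-values cover no spread beyond these samples. The main test shared its estimate of that spread across most genes, so its p-values do not measure the spread of each gene alone.

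mTORC1 is a kinase complex that drives protein synthesis and cell growth when amino acids, energy and growth factors are at hand. MTOR is its kinase and RPTOR the subunit that recruits substrates. Sestrins bind GATOR2 and so hold back the amino acid branch of the pathway, and SESN2 is known as a leucine sensor. DDIT4, also called REDD1, acts through the complex of TSC1 and TSC2, which switches off the small GTPase RHEB. SESN2 and DDIT4 are known targets of stress-responsive transcription factors, among them ATF4, while SESN3 is known as a target of FOXO factors.

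Promoter windows from RefSeq (GRCh38.p14), covering 250 bases before and 50 after a start site, were matched for 9 of the 10 genes, all except DEPTOR. Shown here are the windows of SESN2 and DDIT4, the genes with the largest increases, and of TSC2, whose window was the only one of these genes with the core of a C/EBP-ATF composite element, the type of site that ATF4 binds. The SESN2 window is chr1:28259268-28259567 on the plus strand, the DDIT4 window is chr10:72273674-72273973 on the plus strand and the TSC2 window is chr16:2047735-2048034 on the plus strand. Capitals mark matches to the motifs searched.
SESN2: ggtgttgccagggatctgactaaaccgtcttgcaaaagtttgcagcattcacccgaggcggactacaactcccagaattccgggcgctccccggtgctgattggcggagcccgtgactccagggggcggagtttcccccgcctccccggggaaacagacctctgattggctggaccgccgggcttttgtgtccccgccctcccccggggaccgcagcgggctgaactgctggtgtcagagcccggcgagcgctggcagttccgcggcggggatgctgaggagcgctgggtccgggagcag
DDIT4: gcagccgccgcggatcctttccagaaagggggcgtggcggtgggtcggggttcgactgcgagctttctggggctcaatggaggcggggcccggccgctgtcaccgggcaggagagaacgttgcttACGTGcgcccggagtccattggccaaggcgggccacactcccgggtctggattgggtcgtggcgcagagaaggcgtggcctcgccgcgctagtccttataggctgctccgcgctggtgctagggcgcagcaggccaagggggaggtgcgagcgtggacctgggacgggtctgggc
TSC2: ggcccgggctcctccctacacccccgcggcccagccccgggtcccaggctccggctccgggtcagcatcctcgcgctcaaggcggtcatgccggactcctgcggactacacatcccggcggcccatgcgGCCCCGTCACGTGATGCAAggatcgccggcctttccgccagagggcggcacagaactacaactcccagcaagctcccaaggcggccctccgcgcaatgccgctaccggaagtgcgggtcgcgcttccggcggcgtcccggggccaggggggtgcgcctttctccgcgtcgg

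The motifs were searched on both strands in all 35116 promoter windows of the RefSeq table. They were TGATGNAA for the composite element (3.62% of windows), TGACGTCA for the cyclic AMP response element (1.85%), TGACNNNGC for the antioxidant response element (13.3%), ACGTG for the hypoxia response element (21.4%) and TGTTTAC for FOXO factors (3.42%). The SESN2 window held none of them. The DDIT4 window held ACGTG, at position -125 relative to the start site. In the TSC2 window, the composite element core began at position -110 and lay in a run of overlapping matches to ACGTG, on both strands, and to TGACNNNGC. A further TSC2 window, starting from a downstream start site, held no match. Of the 3 SESN1 windows, the one at chr6:109009503-109009802 held a match to TGACNNNGC and the others held none. The windows of SESN3, DDIT4L, TSC1, MTOR and RPTOR held no match. A match describes letters in the window and no match says only that these letters are absent from it.

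For each gene, the table gives a raw count and an FPKM value per sample. FPKM divides the count by sample total and by the annotated exonic length of the gene, such as 19128 bases for TSC2 and 2118 for DDIT4. That length need not be that of the transcripts expressed, so levels of different genes can be compared only per annotated length. Values of a group are listed in the order of replicates 1, 2 and 3. Total counts lay between 15681655 and 21986948, and 3 counts were taken as the detection floor of a sample, which covers counting error only. Changes were tested on the counts with edgeR's quasi-likelihood test over the 24200 genes whose mean FPKM reached 0.1, which included all 10 genes. A gene was called where its Benjamini-Hochberg adjusted p did not exceed 0.05, and was a differentially expressed gene (DEG) if its log2 fold change was also at least 1 in either direction. Over all tested genes, TMM normalization placed the median log2 fold change at 0.011, and scaling by library size alone placed it at 0.14, so FPKM ratios run slightly above the edgeR fold changes. The labelled line was checked against its markers. VIM, the mesenchymal filament gene, had FPKM values of 603.0 ± 11.8 in Control cells and 635.0 ± 3.91 after PB (SD, n = 3), with a log2 fold change of -0.059 that turned positive with library size alone, and ESR1 and PGR, hormone receptor genes that the line lacks, were at no more than 0.147 FPKM in the mean of either group. ERBB2, the third receptor of that definition, had a mean FPKM of 2.95 in Control cells and 3.59 after PB. Both tested receptor genes were called higher with PB, ESR1 at a log2 fold change of 0.90 and ERBB2 at 0.14 (adjusted p = 0.00244 and 0.024, edgeR), though DESeq2 did not call ERBB2. Of 6 mesenchymal markers of the line, 5 were called lower, 1 of them as a DEG, and 1 was called higher, and their summed level was 910.1 to 939.1 FPKM in the Control samples and 905.1 to 910.3 FPKM in the PB samples. Part of a list of 16 epithelial markers moved with the groups. Its summed level was 441.5 to 448.3 FPKM in the Control samples and 160.7 to 166.2 FPKM in the PB samples. Most of that sum came from KRT18, KRT8 and KRT7, at 285.5, 107.3 and 44.5 mean FPKM in Control cells and 120.6, 38.9 and 0.44 with PB. Of the 10 tested genes of the list, 6 were lower DEGs, 1, ESRP1, was a higher DEG and 3 were not called. Among the lower DEGs, EPCAM had overlapping groups and was not called by DESeq2 (adjusted p = 0.0522). Beside these marker counts, 24.1% of all tested genes were called higher and 26.2% lower, and 5.45% were higher DEGs and 6.79% lower DEGs. CDH1, the epithelial cadherin, held 428, 387 and 522 counts in the Control samples and 2, 0 and 2 counts in the PB samples, and ELF3 held 0 counts in PB replicates 2 and 3. The part of this difference in the results that follow was not tested. In these bulk samples, fewer cells of a type and less RNA per cell cannot be told apart.

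Of the 10 genes, 4 were called higher (SESN2, DDIT4, TSC1 and TSC2), 4 were called lower (SESN1, SESN3, DDIT4L and MTOR), and DEPTOR and RPTOR were not called. Over all tested genes, 24.1% were called higher and 26.2% lower. Calls were more common among better expressed genes, and at a minimum mean FPKM of 1, 4884 of 13533 genes were called higher and 4897 lower. SESN2 and DDIT4 were higher DEGs, beside 5.45% of all tested genes, and SESN3 and DDIT4L were lower DEGs, beside 6.79%. The FPKM values of the groups did not overlap for 9 of the 10 genes, of which 5 were higher and 4 lower with PB. The same was true of 55.6% of all tested genes. The median log2 fold change of the 10 genes was 0.10, beside 0.011 over all tested genes, with values from -5.05 to 3.45.

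**Figure D1:**
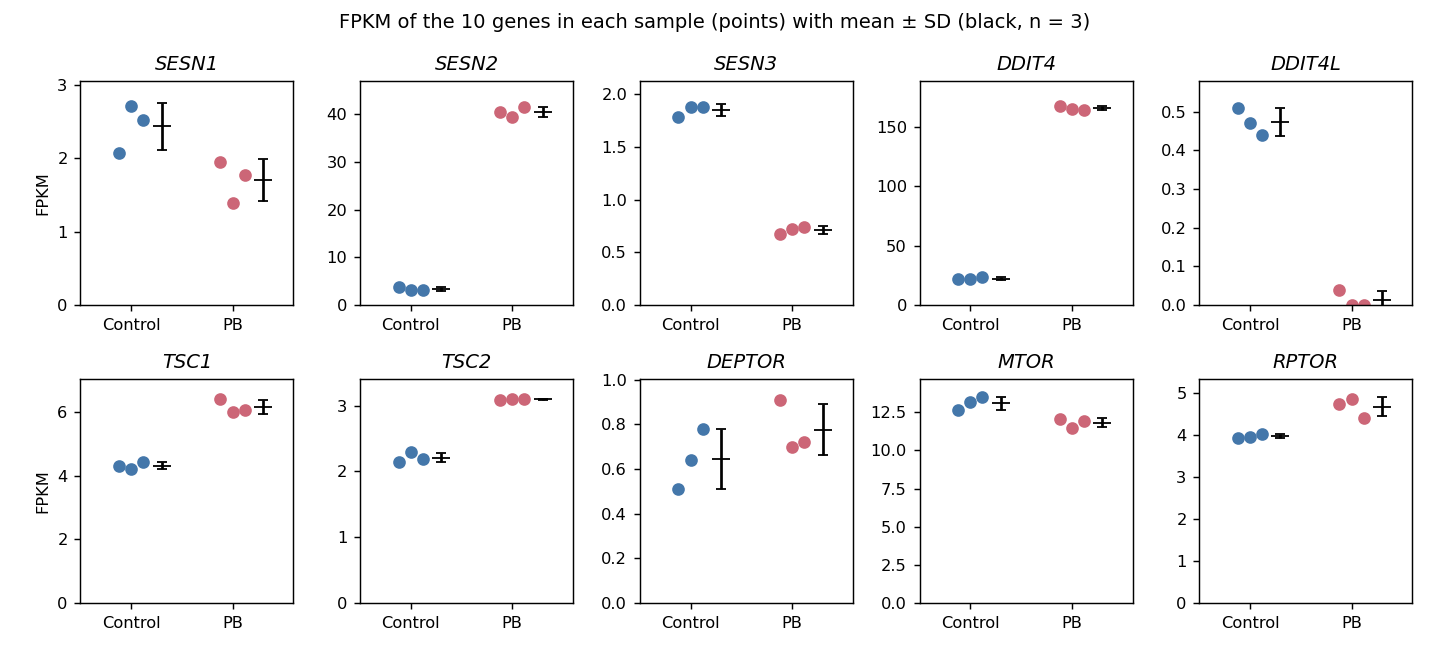
FPKM (vertical axis, linear and starting at 0, with its own scale in each panel) of the 10 genes in the 3 Control samples (blue) and the 3 PB samples (red), with the mean and SD in black. SESN2 lay between 3.09 and 3.86 FPKM in the Control samples and between 39.49 and 41.54 FPKM in the PB samples, while DEPTOR is the only panel in which the groups overlap.

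SESN2 (ENSG00000130766, chromosome 1 from 28259518 to 28282491, plus strand, hg38) showed the largest increase of the 10 genes. Its FPKM values were 3.86, 3.09 and 3.22 in the Control samples and 40.42, 39.49 and 41.54 in the PB samples. Every PB sample was far above every Control sample, and the relative spread was narrower with PB, with a coefficient of variation of 2.54% in place of 12.2%. The counts behind these values were 218, 183 and 245 in the Control samples and 2223, 2144 and 2725 in the PB samples. The log2 fold change was 3.45 (standard error 0.052), or 10.96-fold, and 99.4% of all tested genes had a smaller value. The adjusted p in edgeR's quasi-likelihood test was below numeric range, and limma with trend on log2(FPKM + 0.1) gave an adjusted p of 4.97e-07. This limma fit, used below unless another offset is named, scales by sample total without TMM. Its p-values therefore belong to differently scaled changes. Its log2 fold change was 3.55 for SESN2, and the median over all tested genes was 0.13. On the FPKM values, an exact permutation test (two-sided) gave p = 0.1, the smallest value that 3 samples against 3 allow, and the same p was obtained for each of the 9 genes without overlap.

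SESN1 (ENSG00000080546, chromosome 6 from 108984309 to 109094846, minus strand), another sestrin, went the other way. Its FPKM values were 2.08, 2.71 and 2.52 in the Control samples and 1.95, 1.39 and 1.77 in the PB samples. The groups did not overlap, but the lowest Control value and the highest PB value lay close together. The log2 fold change was -0.65 (standard error 0.086), with an adjusted p of 2.115e-13 in edgeR's test, so the gene was called lower but was not a DEG. In limma the log2 fold change was -0.497 (adjusted p = 0.0357). SESN3 (ENSG00000149212, chromosome 11 from 95165513 to 95232541, minus strand), a sestrin known as a FOXO target, fell further. It held 1.78, 1.88 and 1.88 FPKM in the Control samples and 0.67, 0.72 and 0.74 FPKM in the PB samples. The PB values were well below all Control values. Its log2 fold change was -1.51 (standard error 0.095), a 2.85-fold decrease, with an adjusted p of 1.155e-55 in edgeR's test and 6.64e-05 in limma. LNCRNA-IUR, a gene annotated on the opposite strand across the whole SESN3 span, held 6, 15 and 13 counts in the Control samples and 29, 20 and 19 in the PB samples (log2 fold change 1.00, adjusted p = 0.00777, edgeR). Without known strandedness, reads of SESN3 and of this gene cannot be told apart where their exons coincide.

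The differences between the sestrins were compared through the log2 ratio of their FPKM values within each sample. The ratio of SESN2 to SESN1 was 0.478 ± 0.37 in the Control group and 4.58 ± 0.23 with PB (SD, n = 3), a difference of 4.11. The ratio of SESN2 to SESN3 went from 0.87 ± 0.22 to 5.83 ± 0.072, a difference of 4.96. The decrease of SESN1 was the smaller one beside that of SESN3, and the ratio of SESN1 to SESN3 went from 0.392 ± 0.15 to 1.25 ± 0.30, a difference of 0.86, or 0.388 when the ratio was taken of FPKM + 1. The groups did not overlap in any of these ratios. The exact two-sided permutation test gave p = 0.1 for each, the smallest possible, and 0.125 after Benjamini-Hochberg adjustment over the 5 gene pairs compared.

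Summed over the 3 sestrins, the level was 7.72, 7.68 and 7.62 FPKM in the Control samples and 43.0, 41.6 and 44.1 FPKM in the PB samples, a 5.59-fold ratio of the means. The Control samples hardly differed in this sum although the single sestrins did. SESN2 made up 44.2% ± 5.2 of the sum in the Control group and 94.4% ± 0.51 with PB (SD, n = 3). The share of SESN1 was 31.8% ± 4.3 in the Control group and 3.96% ± 0.60 with PB, and that of SESN3 was 24.1% ± 0.88 and 1.66% ± 0.09. In FPKM, SESN2 held the largest share in each Control sample as well, at no less than 40.2%, and nearly all of the sum in each PB sample, at 93.9% to 94.9%. The Control order depends on the division by exonic length, 3462 bases for SESN2, 7276 for SESN1 and 10578 for SESN3. In raw counts, SESN2 was the lowest of the 3 in each Control sample, at 218, 183 and 245. SESN1 held 247, 338 and 403 counts there, and SESN3 held 307, 341 and 438.

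**Figure D2:**
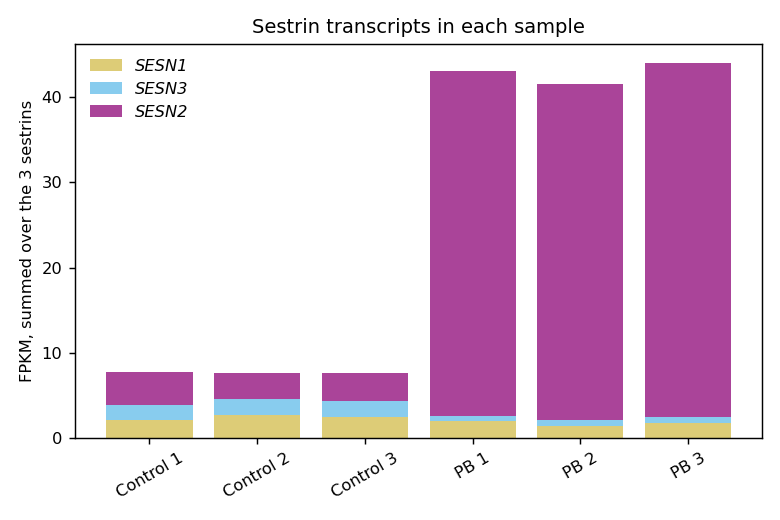
FPKM of SESN1, SESN3 and SESN2 stacked for each of the 6 samples, on a linear axis that starts at 0. The sum rose from at most 7.72 FPKM in the Control samples to at least 41.6 FPKM in the PB samples, and SESN2 accounts for the added height.

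DDIT4 (ENSG00000168209, chromosome 10 from 72273919 to 72276036, plus strand) had the highest FPKM of the 10 genes in both groups. Its FPKM values were 21.71, 21.69 and 23.54 in the Control samples and 167.01, 165.05 and 164.19 in the PB samples. All PB samples were far above all Control samples, with a coefficient of variation of 0.874% in the PB group. The log2 fold change was 2.75 (standard error 0.033), or 6.73-fold, and 99.0% of all tested genes had a smaller value. The adjusted p was below numeric range in edgeR's test and was 1.03e-07 in limma.

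DDIT4L (ENSG00000145358, chromosome 4 from 100185870 to 100190782, minus strand), a paralog of DDIT4 known from muscle, had low counts throughout. It held 25, 24 and 29 counts in the Control samples and 2, 0 and 0 counts in the PB samples. All PB samples were at the detection floor, so only a bound can be given, and against 3 counts per library DDIT4L was at least 7.41-fold lower with PB. The adjusted p was 2.488e-16 in edgeR's test and 0.000685 in limma. DDIT4L shared its direction with the epithelial markers that were lower DEGs, as any gene lower with PB must, and their part in its fall was not tested. H2AZ1-DT, a gene on the opposite strand that spans DDIT4L, held 24, 19 and 9 counts in the Control samples and 16, 15 and 34 in the PB samples, with a log2 fold change of 0.29 that was not called (adjusted p = 0.472, edgeR). The ratio of DDIT4 to DDIT4L was not compared because DDIT4L was at the floor.

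TSC1 and TSC2, whose products form the complex that turns off RHEB, were both called higher by a small amount. TSC1 (ENSG00000165699, chromosome 9 from 132891348 to 132946874, minus strand) held 4.32, 4.23 and 4.43 FPKM in the Control samples and 6.43, 6.03 and 6.09 FPKM in the PB samples. TSC2 (ENSG00000103197, chromosome 16 from 2047967 to 2089491, plus strand) held 2.15, 2.29 and 2.19 FPKM in the Control samples and 3.09, 3.10 and 3.11 FPKM in the PB samples. Neither gene showed overlap between the groups. The log2 fold change was 0.38 for TSC1 (95% interval 0.31 to 0.45) and 0.36 for TSC2 (95% interval 0.26 to 0.45), with adjusted p-values of 5.703e-24 and 3.263e-13 in edgeR's test. In limma, without TMM, the log2 fold changes were 0.505 and 0.471 (adjusted p = 0.000117 and 0.000462). With library size alone, edgeR gave 0.51 and 0.49, above the 0.14 of all tested genes. The log2 ratio of TSC1 to TSC2 was 0.969 ± 0.073 in the Control group and 0.996 ± 0.054 with PB (SD, n = 3), a difference of 0.026 that was smaller than the spread in either group (exact two-sided permutation test, p = 0.7). With FPKM + 1 the difference was 0.078 (exact permutation test, p = 0.1). The 3' end of TSC2 shares 784 bases with PKD1 on the opposite strand. PKD1 was also called higher, with a log2 fold change of 0.88 (adjusted p = 2.845e-80, edgeR), and reads in the shared bases cannot be assigned without strand. Their part in the TSC2 value was not tested.

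MTOR (ENSG00000198793, chromosome 1 from 11106535 to 11262556, minus strand), the kinase itself, was slightly lower. It held 12.65, 13.16 and 13.48 FPKM in the Control samples and 12.09, 11.47 and 11.93 FPKM in the PB samples. The groups did not overlap, although the gap was only that between 12.65 and 12.09 FPKM. The log2 fold change was -0.28 (standard error 0.030, adjusted p = 3.696e-20 in edgeR's test), and with library size alone it was -0.15. In limma, without TMM, the log2 fold change was -0.145 (adjusted p = 0.0149).

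RPTOR (ENSG00000141564, chromosome 17 from 80544819 to 80966371, plus strand), the substrate-recruiting subunit, held 3.94, 3.96 and 4.03 FPKM in the Control samples and 4.74, 4.86 and 4.42 FPKM in the PB samples. The PB samples were above the Control samples in FPKM, but the log2 fold change after TMM normalization was 0.095 (95% interval -0.0028 to 0.19) with an adjusted p of 0.104 in edgeR's test. This call depended on the scaling. With library size alone, RPTOR was called higher at a log2 fold change of 0.23, against a median of 0.14 for all tested genes. The log2 ratio of MTOR to RPTOR, which no scaling of the samples can change, went from 1.72 ± 0.032 in the Control group to 1.34 ± 0.097 with PB (SD, n = 3). The difference of -0.38 was larger than the spread within the groups, and the groups did not overlap (exact two-sided permutation test, p = 0.1, and 0.125 after adjustment over the 5 pairs).

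DEPTOR (ENSG00000155792, chromosome 8 from 119873717 to 120050918, plus strand), which binds and inhibits MTOR, had low counts in these libraries. It held 22, 29 and 45 counts in the Control samples and 38, 29 and 36 counts in the PB samples. The corresponding FPKM values, 0.51, 0.64 and 0.78 against 0.91, 0.70 and 0.72, overlapped. The log2 fold change was 0.11 (95% interval -0.36 to 0.58, adjusted p = 0.743, edgeR), and these data do not tell apart changes within this interval.

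**Figure D3:**
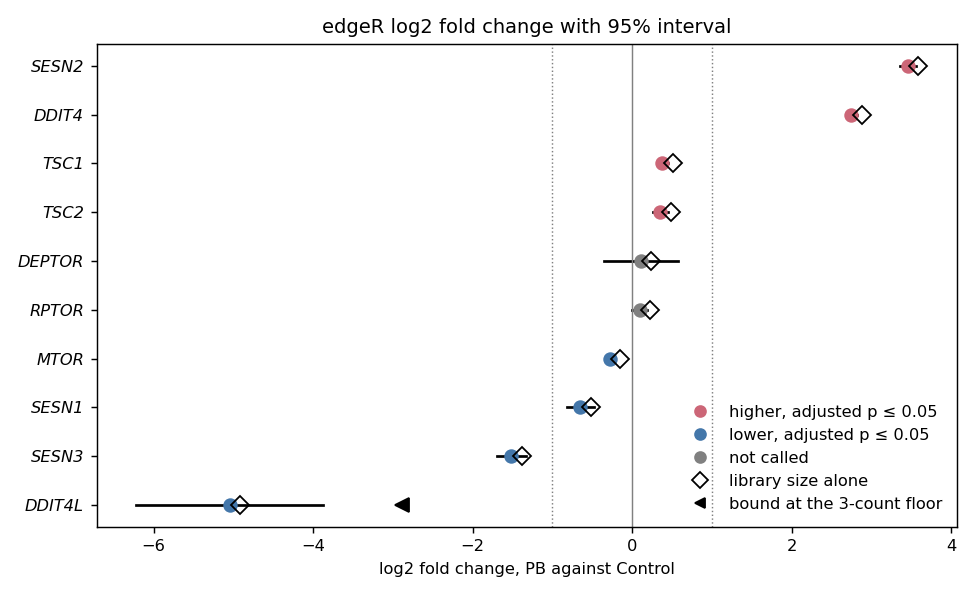
edgeR log2 fold change of PB against Control (horizontal axis) with its 95% interval for the 10 genes, with open diamonds for the value from library size alone and a triangle for the bound of DDIT4L at the floor of 3 counts. SESN2 and DDIT4 lie beyond the dotted line at 1 and SESN3 and DDIT4L beyond the dotted line at -1, and the scaling moves no gene across 0.

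The order of the levels, per annotated exonic length, also changed. In the Control group it ran from DDIT4 (22.3 FPKM) through MTOR (13.1), TSC1 (4.33), RPTOR (3.98), SESN2 (3.39), SESN1 (2.44), TSC2 (2.21), SESN3 (1.85) and DEPTOR (0.643) to DDIT4L (0.473), all in mean FPKM. The samples of neighbours in this order did not overlap, except those of SESN1 and TSC2, and DEPTOR and DDIT4L. In the PB group SESN2 stood next to DDIT4, at 40.5 against 165 mean FPKM, and above MTOR at 11.8. TSC1, RPTOR and TSC2 came next at 6.18, 4.67 and 3.10 mean FPKM, followed by SESN1 at 1.70. DEPTOR and SESN3, at 0.777 and 0.710 mean FPKM, overlapped in their samples, and DDIT4L was last.

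For the 4 DEGs, the genes with the most similar pattern were sought among the 13533 tested genes whose mean FPKM reached 1, by the Euclidean distance of log2(FPKM + 0.1) over the 6 samples after centring each gene on its mean. With 2 groups, this distance mainly reflects the size of the change. The nearest to SESN2 were TRIB3 (distance 0.237), a pseudokinase gene, ASNS (0.33), the asparagine synthetase gene, and NGFR (0.47), a neurotrophin receptor gene, with log2 fold changes of 3.53, 3.61 and 3.63. The nearest to DDIT4 were RAB39B (0.267), SPX (0.287) and AKNA (0.319), with log2 fold changes of 2.70, 2.81 and 2.67. SESN3 lay closest to H2AZ1 (0.0285), a histone variant gene, RANBP1 (0.066) and KIF11 (0.0666), a mitotic kinesin gene, with log2 fold changes of -1.41, -1.38 and -1.42. DDIT4L lay closest to DCDC2 (0.291), KIF20A (0.398) and TGFB2 (0.402), but the offset of 0.1 compresses its change at such low FPKM. The offset also acts on NGFR, at 0.20 mean FPKM in Control cells, and on SESN3. For SESN3, limma with this offset gave -1.27, beside -1.51 in edgeR's test.

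The rest of the pathway was read from 10 lists of 73 genes in all, of which 72 were tested. Of these, 25 were called higher, 26 lower and 21 were not called, shares of 34.7% and 36.1% beside the 24.1% and 26.2% of all tested genes. The median log2 fold change was 0.03. Calls were more common among better expressed genes. At a minimum mean FPKM of 1, 4884 of all 13533 genes were called higher and 4897 lower, and of the pathway genes 28 higher and 19 lower. The shares of 34.7% and 36.1% are therefore not read as an excess. The split depended on the scaling, since library size alone gave 36 higher and 18 lower, and over all tested genes it went from 5842 higher and 6329 lower to 7674 and 4878. Of the 72, 4 were higher DEGs and 3 were lower DEGs, near the 5.45% and 6.79% of all tested genes. The counts of each list below stand beside the same 24.1% called higher and 26.2% called lower over all tested genes.

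Of the 9 subunits and assembly factors of the mTOR complexes, 6 were called lower (66.7%) and 2 higher (22.2%), with a median log2 fold change of -0.60. Over all tested genes, the shares were 26.2% and 24.1%. MAPKAP1 lost its lower call with library size alone. PRR5L, at 0.583 mean FPKM in Control cells, was called lower by edgeR but not by limma (adjusted p = 0.0829). TELO2, which with TTI1 and TTI2 assembles kinases of the mTOR family, dropped from 3.94 ± 0.251 to 2.15 ± 0.163 FPKM (means ± SD of 3 samples), and its log2 fold change was -1.01. TTI1 and TTI2 were also called lower, at -0.62 and -0.60, while RICTOR, the defining subunit of mTORC2, was called higher at 0.24. PRR5, another mTORC2 subunit, was a lower DEG at very low counts, with 14, 17 and 26 in the Control samples and 3, 1 and 4 with PB. RHEB, the GTPase that the TSC complex turns off, was called lower at -0.59, going from 40.4 ± 0.777 to 29.5 ± 0.692 FPKM (SD, n = 3). RHEBL1 had the highest value of that list, 0.056, and was not called. TBC1D7 was not called either, but with library size alone it was called higher at 0.18.

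Among the 5 genes of GATOR2, the complex that sestrins bind, SEH1L and SEC13 were called lower, at -0.53 and -0.32, and 3 were not called, with MIOS highest at 0.091. With library size alone, MIOS and WDR59 were called higher, at 0.22 and 0.15. In GATOR1 and KICSTOR, the brake downstream of GATOR2 and its anchor, 2 of 7 genes were called higher and 2 lower, and KPTN was lowest at -0.91. Of the 7 other nutrient sensors, 2 were called higher and 2 lower, with CASTOR2, a relative of the arginine sensor CASTOR1, lowest at -0.74 and FLCN, which acts on the Rag GTPases, highest at 0.59. Of the 9 Rag GTPase and Ragulator genes, 4 were called higher and 3 lower. RRAGB was highest, going from 5.59 ± 0.697 to 11.3 ± 0.214 FPKM (SD, n = 3) at a log2 fold change of 0.90, and LAMTOR5 was lowest at -0.30. These calls also depended on the scaling. With library size alone, NPRL3, FNIP1 and LAMTOR3 were called higher, and FNIP2, LAMTOR1 and LAMTOR4 lost their lower call.

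AMPK, the energy sensor that sestrins can also engage, and its activator LKB1 were read from 10 genes, of which 9 were tested. PRKAB2, a regulatory subunit of AMPK, was the only DEG of that list, rising from 8.75 ± 0.195 to 19.4 ± 0.0252 FPKM (means ± SD of 3 samples), and its log2 fold change was 1.02. PRKAG2 was lowest at -0.61, and 2 genes were called higher and 4 lower. With library size alone, PRKAA1, CAB39 and STK11 lost their lower call and PRKAA2, PRKAG1 and STRADA were called higher, which gave 5 higher and 1 lower. Of the 11 mTORC1 substrates and effectors, 5 were called higher and 4 lower, and RPS6KB1 lost its lower call with library size alone. TFE3, a lysosomal transcription factor that mTORC1 keeps out of the nucleus, was highest at 0.49. GRB10, an adaptor that mTORC1 phosphorylates, held 109, 111 and 180 counts in the Control samples and 1, 0 and 0 with PB, at least 37.2-fold lower against the floor. As for DDIT4L, the part of the epithelial markers that were lower DEGs in its fall was not tested.

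Among 8 transcription factors known to act on sestrin or DDIT4 genes, 5 were called higher and 1 lower. ATF4 rose from 58.9 ± 2.00 to 153.1 ± 2.79 FPKM (means ± SD of 3 samples), and its log2 fold change was 1.25, and CEBPB from 7.83 ± 0.904 to 27.6 ± 0.550 FPKM (means ± SD of 3 samples), and its log2 fold change was 1.67. FOXO3 and NFE2L2 were called higher at 0.55 and 0.61, and FOXO1 and NR3C1 were not called. With library size alone, FOXO1 and NR3C1 were also called higher, at 0.36 and 0.15. HIF1A, the hypoxia factor, was called lower at -0.74. Among 4 further partners of sestrins, SQSTM1, an autophagy receptor gene, rose from 33.4 ± 0.789 to 130.2 ± 5.34 FPKM (means ± SD of 3 samples), and its log2 fold change was 1.83, and PRDX1, a peroxiredoxin gene, was lowest at -0.63. These are mRNA levels and no protein or phosphorylation was measured here.

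**Figure D4:**
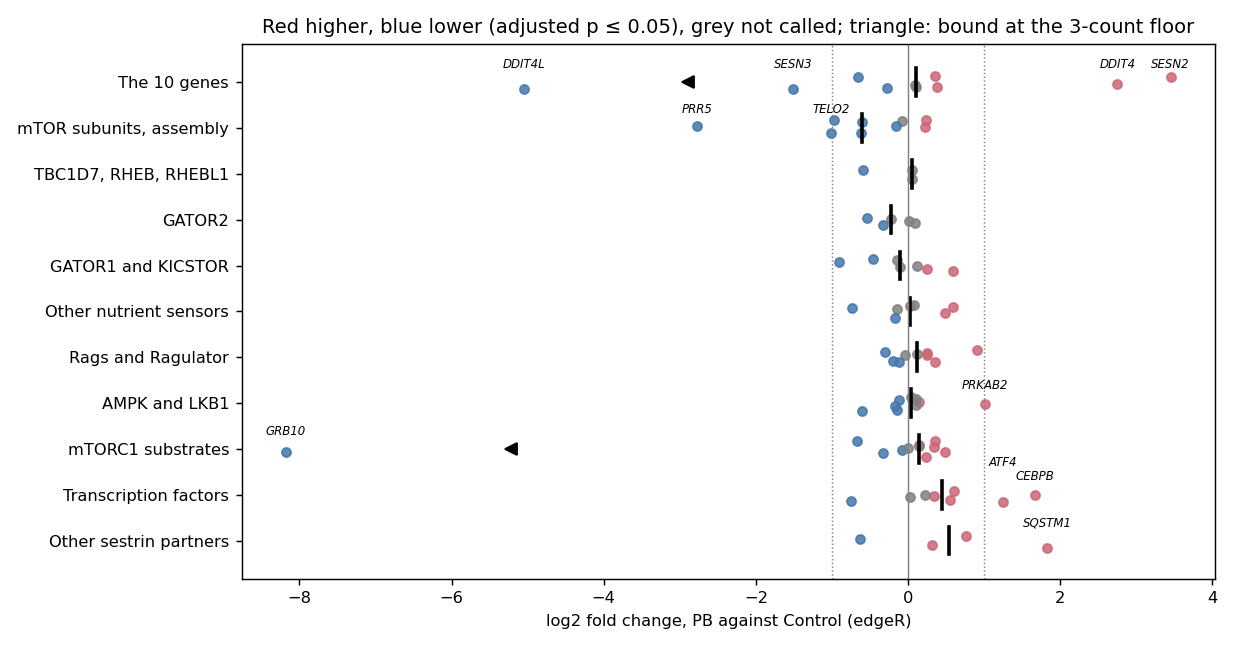
edgeR log2 fold change of PB against Control (horizontal axis) for each tested gene of the 10 genes and of the 10 pathway lists, with a black bar at the median of each list, names for DEGs and triangles for the bounds of DDIT4L and GRB10. Most of the 72 pathway genes lie between the dotted lines at -1 and 1, and 7 lie beyond them.

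The table itself assigns 243 genes to the KEGG mTOR signaling pathway, among them DDIT4, TSC1, TSC2, MTOR and RPTOR but not the sestrins. Of the 145 that were tested, 51 were called higher (35.2%) and 56 lower (38.6%), beside 24.1% and 26.2% of all tested genes. Their median log2 fold change was -0.0012, or 0.0114 with genes at the floor set to their bounds. At a minimum mean FPKM of 1, 51 were called higher and 47 lower, beside 4884 and 4897 of all 13533 genes. With library size alone, 61 were called higher and 38 lower. There were 4 higher DEGs and 6 lower DEGs among the 145, smaller shares than the 5.45% and 6.79% of all tested genes. DDIT4 had the largest change among the higher DEGs, followed by CDC42EP1 at 1.602, RPS6KA2 at 1.57 and SLC3A2, a heavy chain of amino acid transporters, at 1.19. The 6 lower DEGs included TELO2 and the WNT ligand genes WNT7B at -4.83 and WNT9A at -1.23, together with PRSS23, ATP6V1C2 and a gene without a symbol at the floor in both groups.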

How the data were processed

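The data were RNA-seq libraries of 3 Control and 3 PB samples of MDA-MB-231, grouped by their titles, and each table column was matched to its sample by name. The authors deposited raw counts per gene and FPKM values. The deposited FPKM values matched, to 0.0051, counts divided by exonic length and sample total in 100% of cases. The submitters' processing notes name HTSeq 0.6.1, Cufflinks 2.2.1, DESeq2 and hg38. The aligner and the strandedness are not given in the sources used here, so overlapping and antisense genes are uncertain.

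The 24200 genes whose mean FPKM reached 0.1 were tested with edgeR 4.0.16 in R 4.3.3 (TMM, legacy quasi-likelihood fit, robust). The estimated spread was shared across genes for 97.2% of them, including 9 of the 10 members, so standard errors are narrow. Results of limma 3.58.1 on log2(FPKM + 0.1), scaled without TMM, are given beside those of edgeR. Replicates differed by slightly more than sampling noise (chi-square per degree of freedom 1.45 to 1.92 within groups). The procedures were tested on simulated counts. There, all genes shared a single spread (common dispersion 0.000495), and far fewer genes were changed than were called here. Single genes of the data had a median biological coefficient of variation of 6.97%, so the simulation does not show how p-values behave at that spread.

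The genes, lists and motifs were chosen with earlier results of these data known. Named genes are the 10 members, each list's DEGs and extremes, the 3 nearest genes by distance, and overlapping genes with at least 30 counts. TTI1, TTI2, SEC13, PRKAA1, CAB39, STK11, PRKAA2, PRKAG1, STRADA, the marker genes, the other transcription factors and the KEGG genes were named after their values were seen. So were MAPKAP1, PRR5L, TBC1D7, WDR59, NPRL3, FNIP1, FNIP2, LAMTOR1, LAMTOR3, LAMTOR4 and RPS6KB1. SAMTOR was matched through RefSeq synonyms. Some genes of the lists are counted but not reported here by name. The alternatives tried were DESeq2 1.42.0, a minimum mean FPKM of 1 or none, library size alone, another edgeR fit, limma with offsets of 0.1 and 1, ratios of FPKM + 1 between paired genes, the replicate number as a block, and each sample left out.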

Additional observations from a re-analysis of the deposited data

How the results depend on the processing

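SESN2, DDIT4, SESN1, SESN3, TSC1, TSC2 and MTOR kept their direction and their call under every alternative tried, and so did DDIT4L where it was tested, which it was not at a minimum mean FPKM of 1. DEPTOR was called under none. Leaving out each sample moved the log2 fold change of DEPTOR between -0.015 and 0.288, and it was below 0 without Control replicate 1 or without PB replicate 1. RPTOR was called higher at a log2 fold change of 0.13 at a minimum mean FPKM of 1 (adjusted p = 0.0185, edgeR), at 0.23 with library size alone, at 0.23 and 0.19 with limma and offsets of 0.1 and 1, and at 0.13 without PB replicate 3, with a range of 0.068 to 0.13 over the samples left out. The cause was not tested. The fitted log2 fold change of DDIT4L ranged from -7.73 to -4.46 over the samples left out, since it is near 0 counts with PB.

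The count of lower DEGs among the 10 genes went from 2 to 1 at a minimum mean FPKM of 1, where DDIT4L is not tested, and to 0 with an offset of 1, which compresses low values. Lower DEGs among the 72 pathway genes went from 3 to 0 at a minimum mean FPKM of 1 and ranged from 2 to 5 over the samples left out, with 5 without PB replicate 3. Among the KEGG genes they went from 6 to 2 at a minimum mean FPKM of 1 and to 3 with library size alone, and ranged from 3 to 6 over the samples left out, with 3 without Control replicate 3. Over all tested genes, 1320 higher and 1644 lower DEGs became 607 and 768 at a minimum mean FPKM of 1, and 329 and 496 with limma and an offset of 1. The difference between TSC1 and TSC2 ranged from -0.016 to 0.0495 over the samples left out and was 0.0779 with FPKM + 1, and that between SESN1 and SESN3 was 0.388 with FPKM + 1.

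Replicate numbers did not pair the samples, as deviations of same-numbered samples correlated at -0.0287, 0.0433 and -0.0292 across 13533 genes. With the replicate number as a block, the 10 genes again gave 4 higher and 4 lower calls, SESN2 had a log2 fold change of 3.46 and all tested genes gave 11951 calls in place of 12171. At these low counts, the sizes of the changes of DEPTOR and DDIT4L are poorly resolved.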
